A study of Mus musculus with 2 samples.

Results

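Injured proximal tubule cells are described here as the cell barcodes of 2 kidney libraries that carried the injury genes Havcr1 or Krt20. A barcode was a member when Havcr1 and Krt20 together gave at least 5 unique molecular identifiers (UMIs, each standing for 1 captured RNA molecule) and at least 2 per 10000 UMIs of the barcode. It also had fewer than 3 UMIs of the thick ascending limb gene Slc12a1 and none of the urothelial genes Upk1b and Upk3a or of the leukocyte gene Ptprc. Of 13606 barcodes that passed the quality limits, 611 were members, 325 of 6419 in the library labelled Cre- and 286 of 7187 in the library labelled PHDTiEC. The rule used measured values of these same barcodes, so levels of its genes are given as descriptions.

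The Cre- library came from a mouse without the Cre transgene. The library labelled PHDTiEC came from a mouse that carried Cdh5-CreERT2 with the alleles Phd1f/f, Phd2f/f and Phd3f/f, in which tamoxifen removes the prolyl hydroxylase genes Phd1, Phd2 and Phd3. Both mice, male littermates 8 to 10 weeks old per the study's methods, had 1 renal artery clamped for 25 minutes and then 4 injections of 3 mg tamoxifen, and the injured kidney was taken on day 14. The Cdh5 promoter drives the recombinase in endothelial cells, so tubule cells were not the targeted type, and floxed alleles of the Cre- mouse are not stated in the labels. With 1 mouse and 1 library for each genotype, no difference between them has a replicate check and none was tested; genotype, mouse, dissociation and library cannot be told apart. All intervals are 95% intervals and cover counting error only.

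The proximal tubule reabsorbs most of the filtered glucose, phosphate and amino acids, and its mitochondria-rich cells are the ones most exposed to ischemia. After injury, surviving cells dedifferentiate, lose transporters and express Havcr1 (kidney injury molecule 1, a phosphatidylserine receptor for apoptotic debris) and the intermediate filament gene Krt20. Most of them redifferentiate, while cells that fail to do so keep Vcam1, an adhesion molecule for leukocytes, and secrete chemokines and growth factors.

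The libraries held 136004367 UMIs (Cre-) and 146758812 UMIs (PHDTiEC). Members had a median of 20844 and 20968.5 UMIs and of 4834 and 4847 genes per barcode, and no member barcode occurred in both libraries, against 15 among all passing barcodes. The median mitochondrial share of members was 4.45% and 3.37%, and Malat1, a nuclear RNA, stood at 40690 and 54400 CPM (counts of summed UMIs scaled to a total of 1000000 per class and library). Both measures also differed in this direction in differentiated proximal tubule, thick ascending limb and macrophage barcodes, and their part in any difference between the libraries was not tested. Of the genes named in the targeted genotype, Egln1 (Phd2) stood at 72.4 and 184 CPM, Egln2 (Phd1) at 34.5 and 36.9 CPM and Egln3 (Phd3) at 21.9 and 137 CPM in the 258 and 367 barcodes with at least 10 UMIs of endothelial markers. None of them was lower in the library labelled PHDTiEC, but 3′ tags can lie outside a deleted part and then check nothing. In members Egln1 stood at 44.3 and 50.4 CPM.

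At the edge of the rule, 14 members in each library had exactly 5 UMIs of the 2 genes, and 25 and 44 other barcodes had 4. The lowest members held 2.00 and 2.03 per 10000, and the highest barcodes left out for their share alone held 1.97 and 1.98. The median member held 9.13 and 7.43 per 10000, far from the limit. Of the 382 and 350 barcodes over the marker limit, 6 and 11 were left out for Slc12a1, 1 and 0 for the urothelial genes and 50 and 53 for Ptprc.

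Krt20, a gene of the rule, and Gc, a marker outside it, were the marker genes with a match to the elements searched, so their sequences are shown. Only TATA, HNF1, AP-1 and NF-kB letters were searched. They are the 250 bases before the start in RefSeq (GRCm38.p6), 5′ to 3′ on the gene's strand, at chr11:99438154-99438403 for Krt20 (minus strand) and chr5:89457899-89458148 for Gc (minus strand). Capitals mark a TATA box (TATAAA) in Krt20, 29 bases before the start, and in Gc, 52 bases before it, part of the site of the proximal tubule factor HNF1 (GTTAAT, any base, then ATT).
Krt20: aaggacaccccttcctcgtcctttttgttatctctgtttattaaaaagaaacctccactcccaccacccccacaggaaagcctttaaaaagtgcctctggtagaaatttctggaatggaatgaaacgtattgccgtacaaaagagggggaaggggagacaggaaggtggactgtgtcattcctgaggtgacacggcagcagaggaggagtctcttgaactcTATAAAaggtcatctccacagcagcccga
Gc: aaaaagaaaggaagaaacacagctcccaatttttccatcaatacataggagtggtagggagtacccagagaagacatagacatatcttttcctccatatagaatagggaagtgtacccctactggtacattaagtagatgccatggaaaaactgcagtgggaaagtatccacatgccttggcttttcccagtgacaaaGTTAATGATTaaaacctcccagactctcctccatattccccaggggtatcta
On either strand TATAAA was in 12.4% and the HNF1 letters in 0.371% of 32851 listed promoters of this length, and neither match overlapped another. The AP-1 letters TGANTCA (6.75% of all promoters) and the NF-kB letters (GGG, any 2 bases, TT, any base, CC, 4.11%) were not in the 9 listed windows of Havcr1, Krt20, Stra6 and Gc. For Havcr1 and Stra6 the nearest listed start lay 5143 and 65300 bases from the gene start in GENCODE, so absence there says little. Vcam1 had no entry. A match describes the letters and is not evidence of binding.

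Of the markers, Havcr1 (chromosome 11, 46735080 to 46779578 on GRCm38) stood at 1032 CPM (1011 to 1054) in Cre- members and at 809 CPM (789 to 829.5) in PHDTiEC members. Krt20 (chromosome 11, 99428403 to 99438150) stood at 59.8 CPM (54.7 to 65.2) and 48.5 CPM (43.7 to 53.7), and was carried by 44.3% and 37.8% of members. Havcr1 therefore supplied most of the choice: 181 and 178 members had Havcr1 alone, 144 and 104 had both, and 0 and 4 had Krt20 alone. Every other class had less: Havcr1 was at 50.6 and 39.6 CPM in differentiated proximal tubule barcodes and at 21.3 and 20.5 CPM in macrophages.

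Vcam1, Stra6 and Gc played no part in the rule. Vcam1 (chromosome 3, 116109949 to 116129688) stood at 948 CPM (928 to 969) in Cre- members and 777 CPM (757 to 797) in PHDTiEC members, against 163 and 118 CPM in differentiated proximal tubule barcodes. The lowest, median and highest Vcam1 values over members were 0, 6.90 and 54.8 per 10000 UMIs in Cre- and 0, 5.03 and 82.3 in PHDTiEC, so the libraries overlapped almost wholly. Once each barcode was thinned to 3000 UMIs, 73.2% (68.1 to 78.0) and 68.2% (62.4 to 73.5) of members had a Vcam1 UMI, against 12.4% and 12.1% of macrophages (median 8090 and 8627 UMIs), the class used as background for tubular RNA, although macrophages can express Vcam1 themselves.

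Stra6, the cell-surface receptor for retinol-binding protein, was at 140.5 CPM (133 to 149) and 124 CPM (116 to 132) in members and at 19.9 and 23.9 CPM in differentiated barcodes. It was found in 59.7% and 55.6% of members, with medians of 0.585 and 0.342 per 10000. Gc, the plasma carrier of vitamin D, was at 210.2 and 219 CPM in members and at 94.96 and 143 CPM in differentiated barcodes. Thinned, a Stra6 UMI was in 26.1% and 19.9% of members and a Gc UMI in 32.9% and 39.9%, against 0.434% and 0.795%, and 0.868% and 1.10%, of macrophages. All 3 genes outside the rule were thus most abundant in the members of the 4 classes in both libraries.

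**Figure D1:**
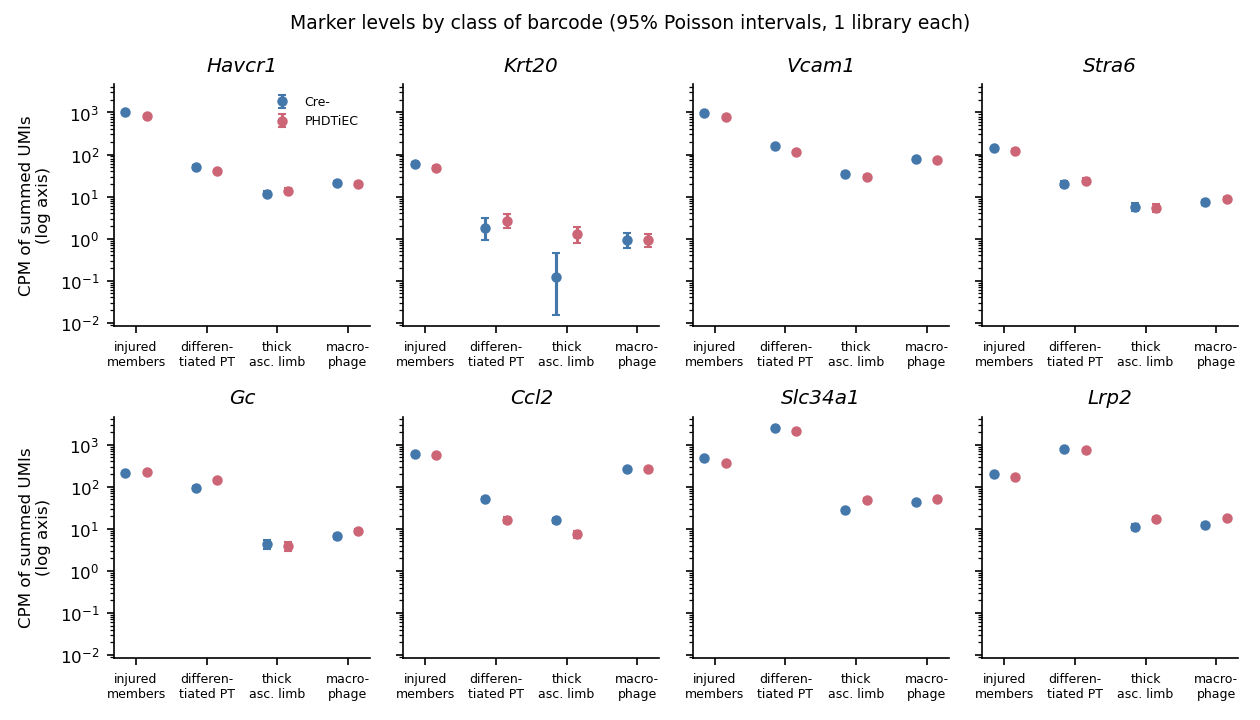
Level of 8 genes in CPM of summed UMIs (log axis) in members, differentiated proximal tubule (PT), thick ascending limb and macrophage barcodes, 1 point per library with its Poisson interval. Havcr1, Krt20, Vcam1, Stra6 and Gc are highest in members and Slc34a1 and Lrp2 in differentiated barcodes. Havcr1 and Krt20 chose the members, and Slc34a1 and Lrp2 helped to choose the differentiated class. Ccl2 is also present in macrophages, at 259.6 and 260.1 CPM.

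**Figure D2:**
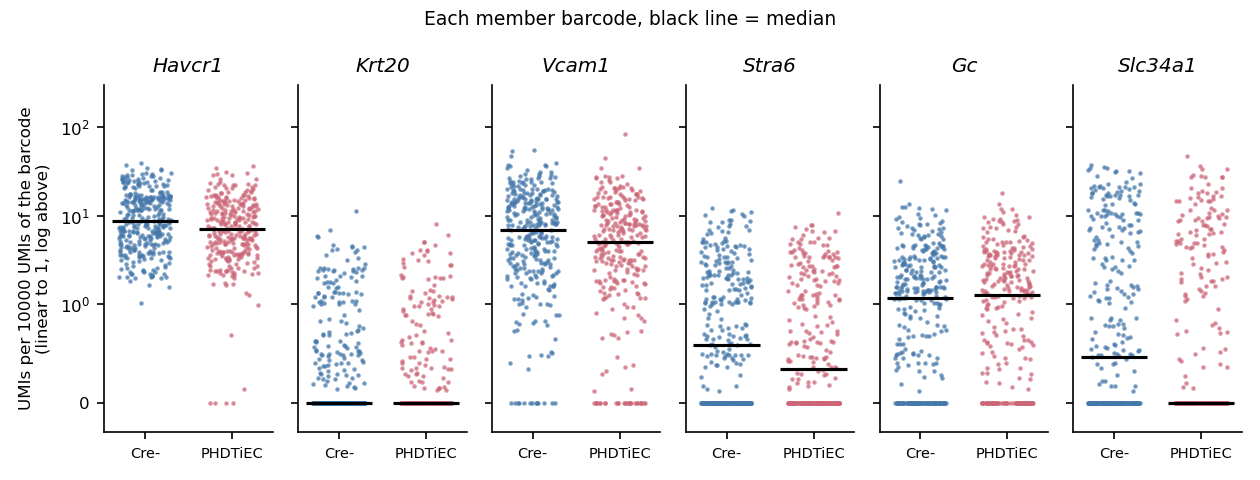
UMIs per 10000 of the barcode for 6 genes, 1 dot for each of the 325 Cre- and 286 PHDTiEC members, with a linear axis to 1 and a log axis above it. Black lines are medians. The 2 libraries overlap for every gene, and Krt20 and Slc34a1 are at 0 in many members.

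The proximal tubule label was checked against genes that the rule did not use. At least 3 UMIs of Slc34a1, Slc5a12, Lrp2, Cubn, Slc27a2 and Gatm together were found in 84.0% and 75.9% of members. After thinning, 68.6% (63.3 to 73.6) and 64.3% (58.5 to 69.9) of members had at least 1 such UMI, while macrophages had one in 41.0% and 40.4%. Gatm is part of that background, at 151 and 150.1 CPM in macrophages, above its level in members. Thinned alike, 5.31% and 9.4% of thick ascending limb barcodes had such a UMI. The share of members was thus above those of both classes in both libraries. Part of it lay within the macrophage background, and how much of it was free RNA was not tested. The endocytic receptor Lrp2 (megalin) stood at 202 and 169 CPM in members against 12.7 and 17.96 CPM in macrophages.

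Markers of other cell types were low in sum but not absent. Their summed levels in members were lowest for B cells in Cre-, at 0.351 CPM, and for urothelium in PHDTiEC, at 0.789 CPM. The sums were highest for mural cells, at 171 and 195 CPM. Thick ascending limb was at 68.1 and 78.9 CPM, thin limb at 142 and 175 CPM and macrophage at 140.2 and 158 CPM. The distal lists were higher in PHDTiEC members, at 14.9 and 35.2 CPM for distal convoluted tubule, 45.6 and 131 CPM for collecting duct principal and 90.5 and 179 CPM for intercalated cells, and so were the fibroblast list at 23.7 and 101 CPM and the endothelial list at 21.6 and 42.9 CPM. Pvalb, Upk1b, Upk3a, Upk2 and Krt5 were at 0 in both libraries. The member rule itself required 0 UMIs of Upk1b, Upk3a and Ptprc and limited those of Slc12a1. The values of Upk1b and Upk3a were thus fixed by the rule and show nothing. The thick ascending limb and leukocyte sums are not independent of the rule. In 65 Cre- members (20.0%) and 71 PHDTiEC members (24.8%), at least 1 of these lists reached 10 UMIs. No doublet caller was run, and results that move without these barcodes are given with the value without them.

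Against differentiated proximal tubule barcodes, members had the pattern of injured cells in both libraries. Those 317 Cre- and 475 PHDTiEC barcodes had at least 5 UMIs and 2 per 10000 of Slc34a1, Slc5a12 and Lrp2, met the same exclusions and were not members. Of 9480 genes with at least 100 UMIs in each library over both classes, 528 (5.57%) were at least 2-fold higher in members in both libraries and 349 (3.68%) at least 2-fold lower. The median over all genes was a log2 ratio of 0.149 in Cre- and 0.172 in PHDTiEC. The classes were defined by expression, so these ratios describe the classes and test nothing.

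Genes of the differentiated tubule were lower in members. In the proximal tubule identity list 16 of 21 genes were at least 2-fold lower in both libraries and none was 2-fold higher, with medians of -1.93 and -1.83 (3 of the genes defined the comparison class). The sodium-phosphate cotransporter Slc34a1, 1 of those 3, stood at 479 and 366 CPM in members against 2495 and 2114 CPM. Gatm, which makes the creatine precursor and defined neither class, stood at 138 and 102 against 1019 and 864 CPM. The transcription factor gene Hnf4a, which maintains this identity, differed less, at 73.8 and 65.2 against 154 and 148 CPM. The brush border list differed less, with 4 of 13 genes 2-fold lower and medians of -0.81 and -0.86. Its members Vil1 (villin), at 77.9 and 58.0 against 71.0 and 77.5 CPM, and Mme (neprilysin), at 73.5 and 84.4 against 41.8 and 49.4 CPM, were not lower in both libraries.

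Metabolic genes split by pathway. All 9 genes of the gluconeogenesis and fructose list were at least 2-fold lower in members in both libraries, with medians of -2.15 and -2.19. Fructose-bisphosphatase Fbp1 stood at 122 and 83.2 CPM in members against 541 and 540.0 CPM, and Pck1, which commits carbon to glucose synthesis, at 15.0 and 16.2 against 116 and 121 CPM. Likewise all 13 mitochondrially encoded genes were at least 2-fold lower, with medians of -1.37 and -1.43. Fatty acid oxidation was lower by less, with medians of -0.62 and -0.80 and 5 genes past 2-fold. Glycolysis had medians of 0.25 and 0.11, near those of all genes (0.149 and 0.172), with 4 of 15 genes 2-fold higher. Hexokinase 2 (Hk2), which traps glucose in the cell, was at 94.2 and 169.5 CPM against 10.9 and 13.1 CPM. The most abundant genes of the list were slightly lower in members. Gapdh was at 1287 and 1153 against 1362 and 1310 CPM, and Ldha at 498 and 451 against 562 and 521 CPM.

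Injury genes were higher. In the injury and dedifferentiation list 15 of 24 genes were at least 2-fold higher in both libraries, with medians of 1.48 and 1.87. Cd44, a hyaluronan receptor, stood at 166 and 141 CPM against 8.97 and 7.18 CPM, and the calcium-binding S100a6 at 2462 and 3552 against 169 and 159.7 CPM. Spp1 (osteopontin) was the most abundant gene of the list, at 51110 and 40800 CPM against 23110 and 21530 CPM. The neutrophil gelatinase-associated lipocalin gene Lcn2 did not follow the list in Cre-, at 329 against 298 CPM, while in PHDTiEC it was at 545 against 94.0 CPM, with 19.8% and 14.6% of the members' UMIs in 1 barcode.

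In the failed repair list 14 of 16 genes were at least 2-fold higher in members in both libraries, with medians of 1.76 and 1.83. Ccl2, which attracts monocytes, stood at 599 and 566 CPM against 51.2 and 16.2 CPM, and Traf1, an adaptor of TNF receptors, at 43.2 and 24.7 against 1.32 and 1.23 CPM. Macrophages held Ccl2 at 259.6 and 260.1 CPM, below the members, and Traf1 at 54.6 and 37.7 CPM, above them. The growth factors Pdgfb, at 178 and 195 against 75.4 and 108 CPM, and Csf1, at 26.6 and 55.9 against 7.50 and 10.98 CPM, were also higher in members, though Pdgfb was past 2-fold in Cre- only.

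Of the NF-kB and TNF list 11 of 21 genes were at least 2-fold higher in both libraries, with medians of 1.32 and 1.44. Nfkbia, the feedback inhibitor, was at 450.0 and 453 CPM against 169.8 and 167 CPM, and complement C3 at 1400 and 962 against 563 and 646 CPM. Of the matrix and TGF-beta list 12 of 23 genes were at least 2-fold higher, with medians of 1.04 and 1.31, among them Tnc (tenascin C, a matrix protein of wounds) at 12.7 and 38.9 against 0.882 and 10.05 CPM. The immediate early and dissociation stress list had medians of 0.63 and 0.66, with 3 of 18 genes at least 2-fold higher in both libraries. Hspa1b was at 51.0 and 77.2 against 25.1 and 24.0 CPM. The abundant genes Fos and Jun differed less between the classes, at 1651 and 2150 against 1260 and 1501 CPM for Fos. In the retinoid and vitamin list 4 of 11 genes were 2-fold higher and 2 were 2-fold lower: the retinaldehyde dehydrogenase Aldh1a2 was higher, at 30.1 and 49.7 against 5.88 and 9.34 CPM, and Aldh1a1, which acts on the same substrate, was lower on few UMIs (21 and 8 in members), at 2.46 and 1.05 against 6.03 and 5.13 CPM.

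Leaving out the genes that chose either class and mitochondrial, ribosomal protein and haemoglobin genes, the 12 genes with the highest ratios to differentiated barcodes included Sox11, Traf1, Cd44, Pdlim4, S100a6, Basp1, Gm15987, Ccl2, Ankrd1, Anxa1 and Gm8773. Sox11, a transcription factor gene of the developing kidney and nervous system, stood at 31.3 and 50.1 CPM in members and at 1.32 and 1.85 CPM in differentiated barcodes, in 85 and 106 members. Ankrd1, a target of the mechanosensitive factor YAP, was at 143 and 226 against 14.1 and 17.5 CPM. The 12 lowest were Car3, Clec2h, Spp2, Dpep1, G6pc, Slc34a3, Nepn, Chrna4, Slc22a28, Slc6a19, Car14 and BC024386. The neutral amino acid transporter gene Slc6a19 stood at 24.8 and 17.2 CPM against 213 and 203 CPM, and the glucose-6-phosphatase gene G6pc at 10.3 and 9.86 against 102 and 102 CPM.

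**Figure D3:**
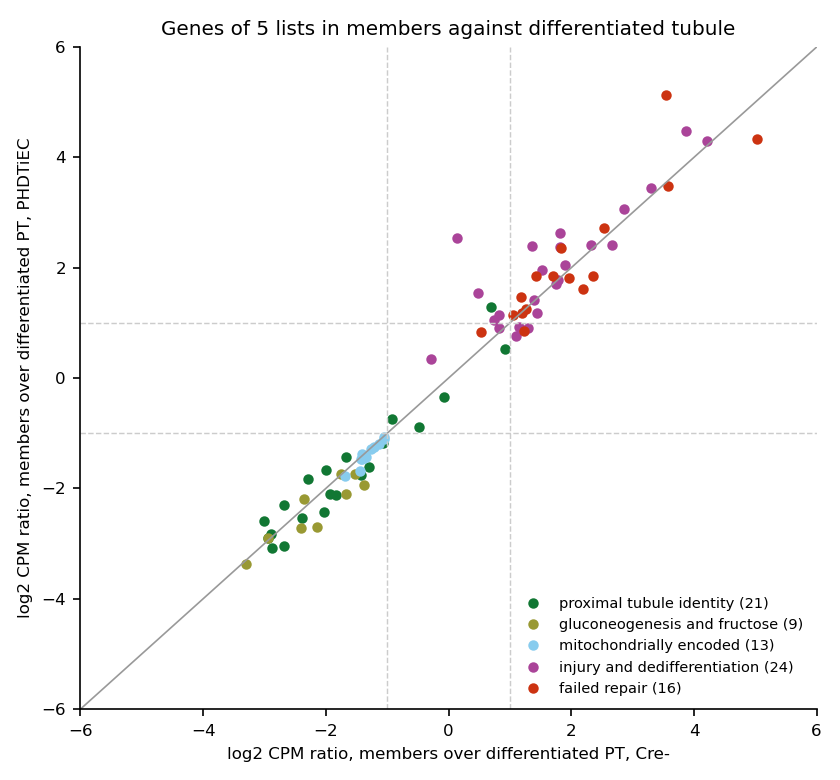
Log2 CPM ratio of members over differentiated proximal tubule barcodes in the Cre- library (horizontal) and the library labelled PHDTiEC (vertical) for the genes of 5 lists, with the number of genes in brackets, dashed lines at 2-fold and the diagonal of equal ratios. Identity, gluconeogenesis and mitochondrial genes lie low in both libraries and injury and failed repair genes high, and Lcn2 is the point far above the diagonal, at 0.14 and 2.54.

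The members were not uniform. After thinning, 46.1% (40.6 to 51.7) of Cre- and 45.1% (39.2 to 51.1) of PHDTiEC members had a UMI of Slc34a1, Slc5a12 or Lrp2. Those with one held Vcam1 at 683 and 509 CPM and those without at 1203 and 972 CPM. Ccl2 stood at 475 and 237 CPM with such a UMI and at 717 and 805 CPM without, and Cd44 at 74.5 and 53.5 against 254 and 205 CPM. In the same split the gluconeogenesis and fructose list summed to 2700 and 2293 CPM with and 597 and 328 CPM without, and the failed repair list to 2290 and 2008 against 3906 and 4043 CPM. The gluconeogenesis and failed repair lists thus went in opposite directions within the members of each library, as they did between the classes. The genes of the split, Slc34a1, Slc5a12 and Lrp2, also chose the differentiated class. Their own difference was fixed by the split and shows nothing.

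Members with a thinned Vcam1 UMI differed from those without in genes that did not define the split. Ccl2 stood at 767 and 687 CPM with and at 99.9 and 257 CPM without, Stra6 at 175 and 152 against 37.2 and 53.9 CPM, and Slc34a1 at 357 and 201 against 839 and 790.0 CPM. Stra6-positive members had more Gc, at 342 and 312 CPM against 164 and 195 CPM in the rest, and more Ccl2, at 1100 and 1082 against 422 and 434 CPM. Macrophages also held Ccl2, and the part of their RNA in this difference was not tested. The 4 members with Krt20 and no Havcr1, all in PHDTiEC, held Ccl2 at 5231 CPM and Lcn2 at 6106 CPM in 99407 UMIs and are too few to describe a type.

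Between the libraries, the share of members among passing barcodes was 5.06% (4.54 to 5.63) in Cre- and 3.98% (3.54 to 4.46) in PHDTiEC, a ratio of 0.786. Counted against differentiated proximal tubule barcodes, members made up 50.6% (46.7 to 54.6) of the 2 classes in Cre- and 37.6% (34.1 to 41.1) in PHDTiEC. Both shares were lower in the library labelled PHDTiEC beyond counting error. How many cells of each type survive dissociation was not measured and was not tested.

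Over the 9867 genes with at least 100 UMIs in members, the median log2 ratio PHDTiEC over Cre- was 0.07, with 6004 genes higher and 3863 lower. In all, 123 genes (1.25%) were at least 2-fold higher and 28 (0.284%) at least 2-fold lower, of which 46 and 5 rested on fewer than 20 barcodes or had over 20% of their UMIs in 1. Without the 65 and 71 members that held other cell types' markers, 30 and 10 genes were past 2-fold. Fewer genes reach 100 UMIs in the remaining members, so these are not counts out of 9867.

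Differentiation genes were lower in PHDTiEC members. Of the proximal tubule identity list 17 of 21 genes were lower, with a median of -0.39, but without members holding other types' markers the median was -0.01. Slc34a1 stood at 479 and 366 CPM and the sodium bicarbonate cotransporter gene Slc4a4 at 780.2 and 538 CPM (log2 ratio -0.54, -0.59 to -0.48). Kap, an androgen-regulated protein gene of the proximal tubule, was at 379 and 36.4 CPM (-3.38, -3.56 to -3.20), with 42.0% of its Cre- UMIs in 1 barcode, and at -2.97 without the top barcode of each library. It was just as far apart in differentiated barcodes, at 1859 and 129 CPM. The brush border list had 11 of 13 genes lower (median -0.32), among them Amn, a partner of cubilin, at 174 and 106 CPM. Gluconeogenesis and fructose had 7 of 9 lower (-0.31), with Fbp1 at 122 and 83.2 CPM. The mitochondrially encoded genes were lower in 11 of 13 (-0.37), together with the lower mitochondrial share in every class.

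The injury, failed repair, NF-kB and retinoid lists had medians on both sides of that of all genes. Injury and dedifferentiation had a median of 0.19 (17 higher, 7 lower), failed repair -0.07 (7 and 9), NF-kB and TNF response -0.07 (10 and 11) and retinoid and vitamin carriers -0.18 (5 and 6). Within them genes went both ways. S100a6 was at 2462 and 3552 CPM, Clu (clusterin, a secreted chaperone) at 897 and 1446 CPM, Krt18 at 273 and 379.5 CPM and Krt19 at 30.0 and 60.4 CPM, whereas Spp1 was at 51110 and 40800 CPM. Among failed repair genes Csf1, the macrophage growth factor, was at 26.6 and 55.9 CPM (1.07, 0.83 to 1.31), or 0.54 on the log2 scale without the members holding other types' markers. Vcam1 was lower by log2 ratio, -0.29 (-0.34 to -0.24), and Traf1 lower at -0.81 (-1.07 to -0.55), while Ccl2 was nearly level at -0.08 (-0.14 to -0.02).

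Retinoid and vitamin D genes held some of the lower values, although the list's median was 0.10 with members over 50000 UMIs left out. Stra6 was at -0.18 (-0.30 to -0.05). Both enzymes of vitamin D activation and breakdown were lower: Cyp27b1, the 1-alpha-hydroxylase, at 14.5 and 5.65 CPM (-1.36, -1.90 to -0.85) and Cyp24a1, the 24-hydroxylase, at 40.4 and 18.8 CPM (-1.10, -1.40 to -0.82). Aldh1a2 was higher, at 30.1 and 49.7 CPM (0.72, 0.49 to 0.96), and Gc did not differ beyond counting error, at 0.06 (-0.04 to 0.16). Cyp26b1, which degrades retinoic acid, had 0 UMIs in Cre- and 11 in PHDTiEC.

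The matrix and TGF-beta list had 18 of 23 genes higher in PHDTiEC (median 0.20) and 5 at least 2-fold higher. Ccn2, a connective tissue growth factor, was at 31.3 and 91.9 CPM (1.55, 1.35 to 1.76), in 46 and 93 members, and Tnc at 12.7 and 38.9 CPM (1.62, 1.30 to 1.95), in 28 and 59 members. Thbs1 was at 17.2 and 44.3 CPM and Pmepa1, a feedback inhibitor of TGF-beta signalling, at 97.4 and 200 CPM. The fibroblast markers were also higher, at 23.7 and 101 CPM in sum, 5 and 3 members reaching 10 UMIs of them. Without the members holding any other type's markers, the ratios of Ccn2 and Tnc were 1.76 and 1.99. Both were also higher in differentiated barcodes of PHDTiEC. There Tnc was at 0.882 and 10.05 CPM, on 6 and 98 UMIs (3.51, 2.34 to 4.99), and Ccn2 at 14.55 and 19.39 CPM (0.41, 0.06 to 0.78).

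Interferon genes were higher in few cells. The interferon and antigen presentation list had 12 of 17 genes higher (median 0.64) and 7 at least 2-fold higher. Ifit1, an antiviral RNA-binding protein gene, was at 3.16 and 38.3 CPM (3.60, 3.03 to 4.22), with 38.1% of its PHDTiEC UMIs in 1 barcode, and Rsad2 (viperin) at 6.09 and 39.8 CPM, with 37.95% in 1. At least 10 UMIs of Ifit1, Ifit2, Ifit3 and Rsad2 together were found in 10 Cre- members (3.08%, 1.49 to 5.59) and 23 PHDTiEC members (8.04%, 5.17 to 11.8), which held 37.1% and 80.5% of these UMIs. Without them the list's median was -0.05. The antigen presentation genes B2m, at 974 and 957 CPM, and H2-K1, at 1055 and 1070 CPM, did not differ beyond counting error, while Cd74, the invariant chain of class II molecules, was at 1310 and 1090 CPM (-0.27, -0.31 to -0.22) and lowest of the list.

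The cell cycle list had 15 of 17 genes higher (median 0.57) and 5 at least 2-fold higher, also from few cells. Top2a, the topoisomerase of dividing cells, was at 5.39 and 18.7 CPM, with 38.03% of its PHDTiEC UMIs in 1 barcode. At least 5 UMIs of Mki67 and Top2a were in 6 and 5 members (1.85%, 0.68 to 3.97, and 1.75%, 0.57 to 4.03), so the share of such members was not detectably different. Without the interferon-positive members the median was -0.18, and with members over 50000 UMIs left out it was -0.02. Ccnd1 (cyclin D1) was the more widely carried difference, at 64.3 and 108 CPM (0.74, 0.59 to 0.90).

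Apart from the gluconeogenesis and mitochondrially encoded lists given above, medians of the stress, hypoxia and metabolism lists lay between -0.10 and 0.23. Immediate early genes were higher in 17 of 18 (median 0.17), with Fos at 1651 and 2150 CPM and Hspa1b at 51.0 and 77.2 CPM. Unfolded protein response genes were higher in 17 of 19 (0.15), with Hspa5 (BiP) at 329 and 424 CPM. HIF targets were higher in 16 of 23 (0.17), but their median was -0.19 after thinning, -0.02 with equal weight for each barcode and -0.01 in members with fewer than 3 UMIs of distal markers. Glycolysis genes were higher in 5 of 15 (-0.10). Vegfa stood at 22.6 and 27.4 CPM, Pgk1 at 205 and 191 CPM and Ldha at 498 and 451 CPM, and the hexokinase gene Hk2 at 94.2 and 169.5 CPM (0.85, 0.72 to 0.98). The HIF target with the highest ratio, Ndufa4l2, was at 1.29 and 4.73 CPM (1.88, 0.87 to 3.00), in 4 and 5 members. The lactate transporter gene Slc16a3, highest of the glycolysis list, was at 1.29 and 2.76 CPM (1.10, -0.02 to 2.30). The p53 and senescence list had a median of 0.23 (8 higher, 7 lower), or -0.04 at a marker limit of 10 UMIs and 4 per 10000, with Cdkn1a, the p21 cell cycle inhibitor, at 129 and 151 CPM. Fatty acid oxidation, at -0.03, and glutathione and antioxidant genes, at -0.06, were near 0, with Gpx1 at 2998 and 2215 CPM.

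**Figure D4:**
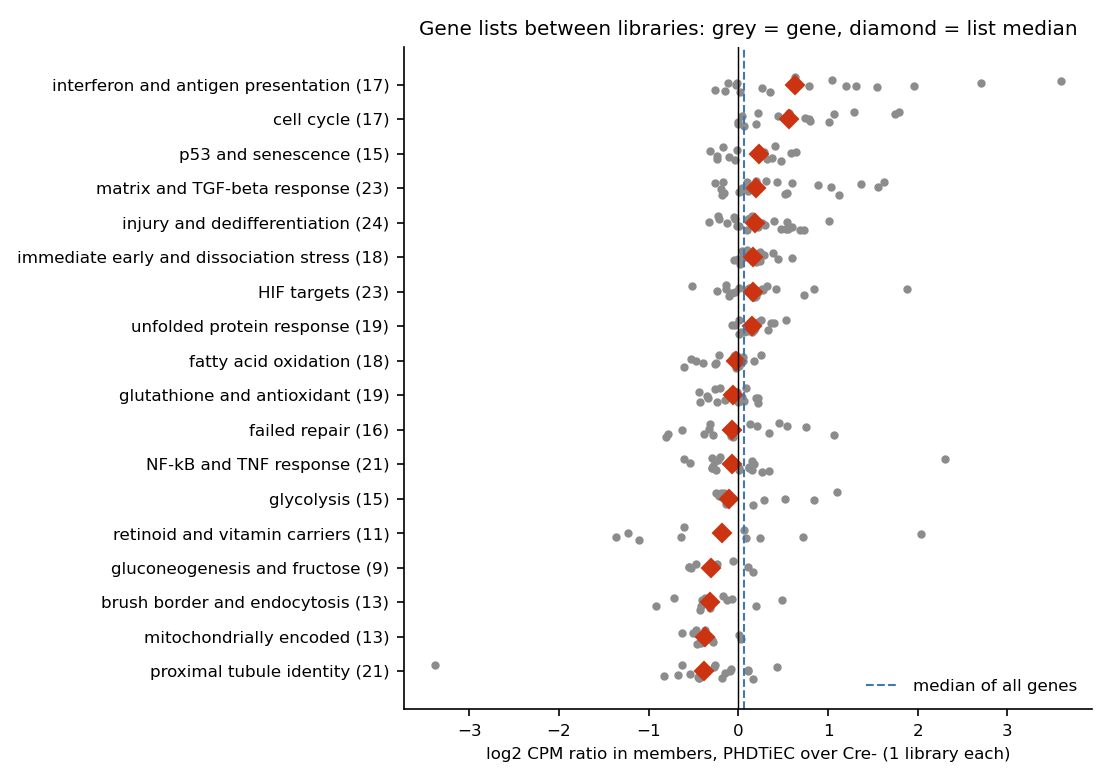
Log2 CPM ratio in members, PHDTiEC over Cre-, for each gene (grey, at least 10 UMIs) of 18 lists, with the list's median as a diamond, the number of genes in brackets and the median of all genes as a dashed line. Medians run from -0.39 for proximal tubule identity to 0.64 for interferon genes, and the farthest single points are Kap at -3.38 and Ifit1 at 3.60. The point of Cyp26b1 at 2.04 is a bound against 3 counts.

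The 8 genes highest and 8 lowest between the libraries, among those outside the rule and not carried by 1 barcode in the library with more, were named by size. The lowest were Slc51a, a subunit of the basolateral bile acid and steroid transporter, at 23.7 and 6.18 CPM (-1.94, -2.43 to -1.47), the zinc transporter gene Slc30a2 at 14.2 and 4.34 CPM, Serpina1b, whose close paralogs can share reads, at 22.03 and 6.84 CPM, the chemokine gene Ccl9 at 42.8 and 14.7 CPM, Adam11, the natriuretic peptide gene Guca2b (uroguanylin) at 359 and 129 CPM (-1.48, -1.59 to -1.38), Cyp27b1 and the homeobox gene Barx2 at 15.1 and 6.05 CPM. Guca2b was the most widespread, in 268 and 174 members, and in differentiated barcodes it was at 410.1 and 218 CPM. Slc51a was likewise lower there, at 51.3 and 21.3 CPM, so these differences were not limited to the members.

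The highest were Kcnj1, Hsd11b2, Efna5, Mecom, Tspan1, Ccbe1, Tnc and Ccn2. Kcnj1 (the ROMK potassium channel of the distal nephron) was at 2.46 and 15.1 CPM (2.62, 1.94 to 3.37) and Hsd11b2, which protects the mineralocorticoid receptor in collecting duct cells, at 33.0 and 127 CPM (1.95, 1.75 to 2.14). These moved together with the distal marker lists: at least 10 UMIs of the collecting duct, intercalated and distal convoluted lists were in 11 Cre- and 22 PHDTiEC members, which held 72.4% and 87.3% of those UMIs. With members limited to fewer than 3 UMIs of Slc12a3, Aqp2, Fxyd4, Atp6v1g3 and Umod, Hsd11b2 was at 0.02 and Kcnj1 at 1.27 on the log2 scale, and Mecom was at 1.73 there and at 0.70 without members holding any other type's markers. Efna5, an ephrin ligand, at 5.16 and 18.4 CPM in 33 and 66 members, and Ccbe1, a secreted matrix protein, at 5.27 and 17.4 CPM in 36 and 44 members, were at 2.05 and 1.41 without those members.

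**Figure D5:**
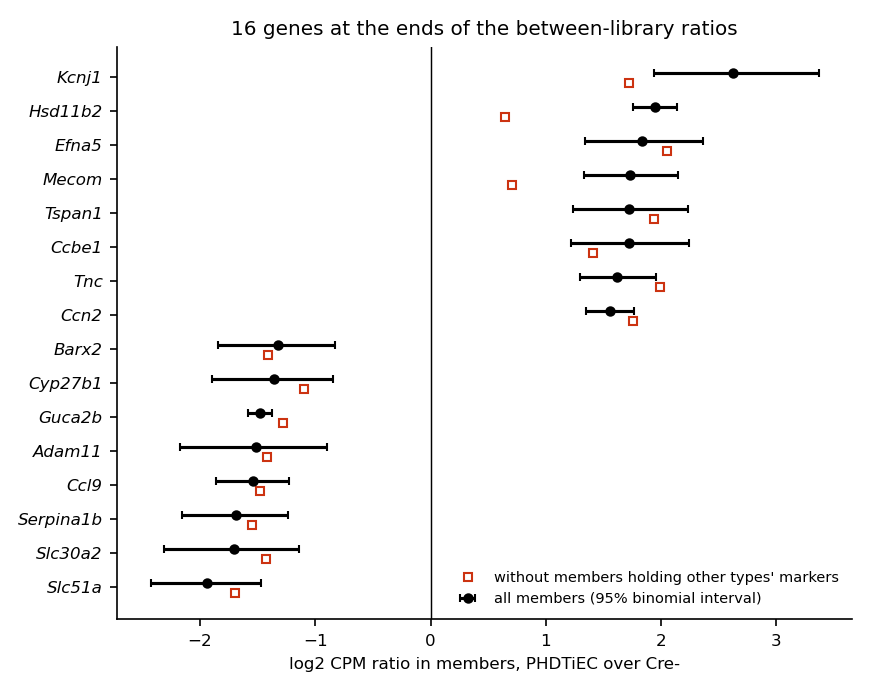
Log2 CPM ratio in members, PHDTiEC over Cre-, of the 16 genes named by size, over all members (black, with its binomial interval) and without members holding at least 10 UMIs of another cell type's markers (red squares, 260 and 215 members). All 16 keep their side of 0, and Hsd11b2 and Mecom come closest to it, at 0.64 and 0.70.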

How the data were processed

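Single-cell RNA from the injured kidney of 1 Cre- and 1 PHDTiEC-labelled mouse was profiled with the 10X Genomics Chromium 3′ kit. The authors aligned reads to mm10 with Cell Ranger (version 4 per the file headers) and deposited raw UMI counts for every barcode, with no cell filter or normalization. Barcodes were kept with 3000 to 100000 UMIs, at least 200 genes, a mitochondrial share up to 50% and log10 genes over log10 UMIs of at least 0.8. Counts were summed per class and library and divided by the class total (CPM). Intervals are exact: Poisson for sums, binomial (Clopper-Pearson) for shares and, given a gene's total, for how it divides between the libraries. A count of 0 was set to a floor of 3 counts for ratios. List medians took genes with 10 or more UMIs in members of the libraries combined, counts of genes those with 100 or more. Thinning drew 3000 UMIs per barcode (seed 1). The comparison classes were differentiated proximal tubule, thick ascending limb (Slc12a1 and Umod) and macrophage (at least 10 UMIs of C1qa, C1qb and C1qc, and Ptprc).

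Named genes were the 8 highest and 8 lowest between libraries and the 12 highest and 12 lowest against differentiated barcodes, in at least 20 barcodes and with at most 20% of UMIs in 1 barcode of the library with more, without the genes that chose either class and mitochondrial, ribosomal protein, haemoglobin and sex-linked marker genes. In addition came the markers, the extremes and most abundant genes of each list, and genes past 2-fold in opposite directions in members and differentiated barcodes. Results for some named genes are not reported here. Other list genes were named after their values were seen. The members and lists were chosen with earlier results of these data known. Of the 24 HIF target, 16 glycolysis and 20 unfolded protein response names, 23, 15 and 19 were found in the files. Positions are GENCODE vM21 (32234 of 32284 gene IDs matched). The ratios and their intervals were checked on simulated Poisson counts. The simulation had no clustering of UMIs in single barcodes, so it does not check the intervals where UMIs cluster. Analyses used Python 3.11.15, scipy 1.17.1 and edgeR 4.0.16 (TMM only). No doublet caller was run; a maximum of 50000 UMIs stood in as an alternative. With 1 library per group no replicate could be left out. The alternatives that leave out members with other types' markers or interferon genes were added after seeing the data. Other alternatives covered the UMI and mitochondrial limits, the marker limits, distal and proximal tubule markers, scaling, barcode weights, free RNA and count minimums.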

Additional observations from a re-analysis of the deposited data

Results flagged for a closer look

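The genes S100a4, Isg15 and Slc8a1 were past 2-fold in opposite directions between the libraries in members and in differentiated proximal tubule barcodes; with 1 library each, the difference was not tested. S100a4, a calcium-binding protein gene, had a log2 ratio PHDTiEC over Cre- of 1.61 in members and -1.13 in differentiated barcodes, with 24.14% and 22.03% of the members' UMIs in 1 barcode, and was at 0.35 in members without the interferon-positive barcodes. Without the barcode with most of its UMIs in each class and library, its ratios were 1.65 and -1.07. Isg15, an interferon-induced ubiquitin-like modifier, was at 1.96 and -1.15, with 46.5% of its PHDTiEC member UMIs and 44.3% of its Cre- differentiated UMIs in 1 barcode each. Without those top barcodes it was at 1.36 in members and -0.49 (-1.09 to 0.11) in differentiated barcodes, no longer past 2-fold there, and it was at 0.26 in members without the interferon-positive barcodes. Slc8a1, the sodium-calcium exchanger of the distal convoluted tubule, was at 1.42 and -1.25, with 60.1% of its Cre- differentiated UMIs in 1 barcode. Without the top barcodes it was at 1.37 in members and -0.32 (-0.68 to 0.03) in differentiated barcodes, and it was at -0.28 in members limited to fewer than 3 UMIs of distal markers.

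Among barcodes with at least 500 but fewer than 3000 UMIs, which the report did not use, 6 of 2049 in Cre- (0.293%, 0.108 to 0.636) and 4 of 2046 in PHDTiEC (0.196%, 0.0533 to 0.500) met the marker limits. A Vcam1 UMI was in 4 and 1 of them.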

How the results depend on the processing

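The directions of all 16 genes named by size held under the 20 alternatives. These genes were chosen for the size of their ratios in the same counts. Count minimums leave a gene's ratio unchanged, and scaling shifts all ratios alike and by little. Those alternatives could therefore not change a direction. The lower share of members in PHDTiEC held under the alternatives that changed the barcode or member limits. Its ratio ran from 0.657 to 0.818 there, the main value included. The other alternatives do not change which barcodes are members, so the share was not computed for them. In all, 362 summary values stayed within their limit (the interval of the main value, or 1.5 times a count), 64 moved past it and 5 changed sign although their main interval excluded 0. Among values of named genes these numbers were 1371, 347 and 18. For a list median, the interval was the counting interval of the gene or genes at the middle of the list. It leaves out the spread of the list, so these labels depend on how many UMIs those genes had. Another 7 summary values and 47 values of 15 named genes, with main intervals that included 0, also changed sign. No paired analysis was possible because each genotype had 1 library, and no replicate could be left out. Depth limits most single-cell shares, and the cause of each change below was not tested.

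Genes at least 2-fold higher and lower numbered 228 and 52 with a count minimum of 50 UMIs, 1261 and 543 with none, 54 and 18 with a maximum of 50000 UMIs, 9 and 5 after thinning, which leaves fewer genes over the count minimum, and 30 and 10 without members holding other types' markers. Higher genes numbered 58 at the limit of 10 UMIs and 4 per 10000 and 71 with fewer than 3 UMIs of distal markers. Settings that leave out members also leave fewer genes over the count minimum.

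List medians that moved past their limit were as follows. With the maximum of 50000 UMIs they were -0.0206 for cell cycle, 0.13 for interferon, -0.28 for proximal tubule identity and 0.10 for retinoid genes. At 10 UMIs and 4 per 10000 they were -0.0096 for glutathione, 0.0394 for injury, -0.28 for mitochondrially encoded, -0.0394 for p53, -0.25 for identity and -0.38 for retinoid genes. At 3 UMIs and 1 per 10000 they were 0.12 for immediate early, -0.44 for mitochondrially encoded, 0.0447 for p53 and -0.27 for identity genes. With at least 3 UMIs of proximal tubule genes they were 0.83 for interferon, -0.34 for mitochondrially encoded, -0.155 for identity and -0.41 for retinoid genes. With fewer than 3 UMIs of distal markers they were 0.93 for interferon, -0.30 for mitochondrially encoded, 0.0346 for p53 and -0.20 for identity genes. With equal weight for barcodes they were -0.19 for brush border, 0.0083 for cell cycle, -0.22 for failed repair, 0.25 for immediate early, 0.34 for interferon, -0.33 for mitochondrially encoded, -0.12 for identity and -0.41 for retinoid genes. After thinning they were -0.35 for NF-kB, -0.15 for brush border, 0.18 for interferon, -0.30 for mitochondrially encoded and 0.39 for p53 genes. TMM scaling gave -0.15 for failed repair, -0.15 for glutathione, 0.0843 for immediate early, 0.105 for injury, -0.45 for mitochondrially encoded and -0.47 for identity genes, and median-of-ratios size factors -0.13 for glutathione, 0.0994 for immediate early, 0.12 for injury and -0.44 for mitochondrially encoded genes. Without members holding other types' markers they were -0.185 for brush border, 0.14 for injury, 0.0907 for p53, -0.0061 for identity and -0.36 for retinoid genes. Without the interferon-positive members they were -0.18 for cell cycle, 0.22 for immediate early, -0.0494 for interferon, -0.33 for mitochondrially encoded, -0.30 for identity and -0.32 for retinoid genes. Without each gene's top barcode identity was at -0.30. Within their limits, HIF targets went from 0.17 to -0.0118 with few distal UMIs, -0.0170 with equal weight and -0.186 after thinning, and NF-kB genes from -0.07 to 0.0421 with few distal UMIs.

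Genes that changed sign and whose main interval excluded 0 were these, as log2 ratios. Cxcl2, a neutrophil chemokine, was at -0.0475 with Havcr1 alone, -0.15 at 10 UMIs and 4 per 10000, -0.0899 with proximal tubule UMIs, -0.20 with equal weight, -0.0903 after thinning and -0.22 without other types' markers. Gpx3 was at 0.0131 with the maximum of 50000 UMIs, 0.0381 with equal weight, 0.0303 after thinning and 0.0679 without other types' markers. Ccl2 was at 0.0199 with that maximum, Ndufa4l2 at -0.43 at 10 UMIs and 4 per 10000, and Slc8a1 at -0.28 with few distal UMIs and -0.82 after thinning. After thinning Etfb was at 0.0366, Hsp90b1 at -0.0481, Krt20 at 0.14 and Treh at 0.60. Of the genes whose main interval included 0, Slc16a3 was at -0.82 after thinning and -0.23 without other types' markers, Dpep1 at -1.58 at 10 UMIs and 4 per 10000 and -0.36 at 3 UMIs and 1 per 10000, Ppara at -0.62 after thinning and Slc2a5 at -0.0906 with the maximum of 50000 UMIs.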
